A study of Mus musculus with 35 samples.

Results

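The 4 genes described here are Nodal, Lefty1, Lefty2 and Tdgf1, the core of the Nodal signalling pathway in the mouse. They were taken by name from the gene tables of every library, through the Ensembl identifier that the tables give, and they are 4 of 54752 genes. All 4 were found once each. Their RNA was followed in mouse embryonic fibroblasts during 7 days of factor-driven reprogramming.

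Nodal is a secreted ligand of the TGF-beta superfamily that acts through activin receptors and the SMAD2 and SMAD3 proteins. It needs a co-receptor of the EGF-CFC family, of which Tdgf1 (also called Cripto) is the founding member. Lefty1 and Lefty2 are secreted inhibitors that block Nodal and its co-receptor, and they are themselves targets of Nodal signalling, so the pathway carries its own negative feedback. In mouse embryonic stem cells all of these genes are well known parts of the undifferentiated expression programme. In the early embryo the pathway patterns the mesoderm and endoderm and the left-right axis.

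The libraries fall into 5 arms named after retroviral factors. The JEGS arm received Jdp2, Glis1, Esrrb and Sall4 and was sampled on days 2, 4 and 6 (3 libraries). The minus_Esrrb, minus_Glis1, minus_Jdp2 and minus_Sall4 arms each lacked the named factor, per the sample names, and were sampled daily from day 0 to day 7 (8 libraries each, 32 in all). All 35 libraries came from passage 2 fibroblasts of embryonic day 13.5 mouse embryos carrying an Oct4-GFP transgenic allele, with a CBA/CaJ × C57BL/6J father and a 129-strain mother. All were infected for 48 hours and then kept in iCD3 medium with Rock inhibitor, the medium step shared by every arm. Retroviral delivery leaves a mixed population, since cells may take up some of the factors and not others. Each arm has 1 library per day and no repeat of any day, so the spread behind each test is that between libraries of different days after day is allowed for. Nothing says that libraries of an arm came from separate cultures, so p-values measure only the spread between these libraries. The treatment label lists all 4 factors for every sample, which goes against the sample names, and the names were used. A pair of library kits is described without saying which library had which, so kit and arm cannot be told apart.

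Depth was 1266379 to 3608456 assigned reads per library (median 1973102), so 1 read stands for 0.277 to 0.79 CPM (counts scaled to the size of the library). The left-out factors followed the sample names. Sall4 was at 0.58 to 11.2 CPM in the minus_Sall4 libraries, Glis1 at 0 to 4.43 CPM in the minus_Glis1 libraries, Esrrb at 7.05 to 57.9 CPM in the minus_Esrrb libraries and Jdp2 at 10.4 to 45.4 CPM in the minus_Jdp2 libraries. In the arms that received it, each factor was at 84.4 CPM or more in every library. Those levels differed between arms. Esrrb was at 961 to 2593 CPM in JEGS (days 2, 4 and 6) and 538 to 2643 CPM in minus_Jdp2. It was at 4012 to 8352 CPM in minus_Glis1 and 4992 to 7681 CPM in minus_Sall4. Jdp2 was at 257 to 896 CPM in JEGS, 428 to 1614 in minus_Esrrb, 791 to 1394 in minus_Sall4 and 1507 to 3529 in minus_Glis1. The arms thus differ in more than the factor left out, and the part of this in the members was not tested. All 6 fibroblast markers were detected in all 35 libraries. The 4 macrophage markers summed to 0.77 to 22.5 CPM.

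Lefty2 lies on chromosome 1 at 180893108-180899103 on the plus strand of GRCm38, and Lefty1 lies 35919 bases beyond its end at 180935022-180938400 on the same strand. Nodal lies on chromosome 10 at 61417972-61425338 on the plus strand, and Tdgf1 on chromosome 9 at 110939603-110946158 on the minus strand. All 4 are protein-coding. Lefty1 and Lefty2 are near-identical over part of their length: of the 75-base windows of the longest Lefty1 transcript, 11.2% also occur in Lefty2, and 7.21% of Lefty2 windows occur in Lefty1. Tdgf1 shares 8.67% of its windows with its processed pseudogenes Tdgf1-ps1 and Tdgf1-ps2, which had 6 and 0 reads in all 35 libraries together. The counts of Lefty1, Lefty2 and Tdgf1 therefore rest in part on how reads were divided between copies. No window of Nodal is shared with the others.

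The reference table (RefSeq, GRCm38.p6) holds promoters of Nodal and Tdgf1. They are shown because these are the ligand and its co-receptor, whose RNA followed different time courses in JEGS and minus_Jdp2. Each is the 250 bases before the gene's start, 5′ to 3′ on the gene's own strand. The Nodal window is chr10:61417722-61417971 on the plus strand, and the Tdgf1 window is chr9:110946159-110946408 on the minus strand. Capitals mark a match to 1 of 6 short motifs searched on both strands, namely CTTTGT (SOX factors), TGCAAAT (octamer), AATCCAC (FOXH1), CAGAC (SMADs), AAGGTCA (ESRRB) and TGACTCA (AP-1).
Nodal: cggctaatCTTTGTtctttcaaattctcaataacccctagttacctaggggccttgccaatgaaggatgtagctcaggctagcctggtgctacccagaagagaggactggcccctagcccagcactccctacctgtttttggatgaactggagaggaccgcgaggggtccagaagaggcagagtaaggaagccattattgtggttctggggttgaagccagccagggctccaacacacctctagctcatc
Tdgf1: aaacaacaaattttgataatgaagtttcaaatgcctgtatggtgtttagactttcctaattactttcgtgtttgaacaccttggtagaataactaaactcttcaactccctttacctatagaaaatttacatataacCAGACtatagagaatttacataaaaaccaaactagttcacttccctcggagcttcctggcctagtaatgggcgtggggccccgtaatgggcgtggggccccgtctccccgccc
The Nodal window held CTTTGT 242 bases before the start, a motif found in 16.5% of the 32851 promoter windows of the same length. The Tdgf1 window held CAGAC 113 bases before the start, found in 42.2% of them. The motifs do not overlap one another in these windows. The other 4 motifs, found in 3.56%, 2.1%, 4.08% and 4.46% of windows in the order listed above, did not occur in either window. A match of a few letters is a description of the sequence.

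Nodal, the ligand, was near its highest level on earlier days than the other 3 genes in JEGS and minus_Jdp2, and its highest single value was in minus_Jdp2. The JEGS libraries held 12, 16 and 14 Nodal reads on days 2, 4 and 6, that is 9.27, 8.96 and 8.75 CPM. These 3 values are nearly level. The minus_Jdp2 libraries held 0, 0, 5, 46, 46, 33, 46 and 3 reads on days 0 to 7, with a peak of 19.9 CPM on day 4 and 1.42 CPM on day 7. The libraries of days 3 to 6 thus stand above the others of the arm. In the minus_Esrrb arm Nodal ranged from 0 to 5 CPM with a median of 1.69 CPM, and in the minus_Glis1 arm from 0.493 to 5.95 CPM with a median of 1.65 CPM. In the minus_Sall4 arm it ranged from 0 to 1.05 CPM with a median of 0.199 CPM, and 4 of its 8 libraries had no Nodal read. The JEGS values lie above every minus_Glis1, minus_Esrrb and minus_Sall4 value and inside the minus_Jdp2 range. How many of all genes lie apart in this way was not counted.

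Tdgf1, the co-receptor, was near absent early and became the most abundant of the 4 genes in the JEGS arm. The JEGS libraries held 0, 33 and 138.92 estimated reads on days 2, 4 and 6, or 0, 18.5 and 86.9 CPM. The count of 0 on day 2 allows a level of up to 2.32 CPM (3 reads). The minus_Jdp2 libraries held 0, 0, 0, 2, 4, 9, 46 and 42.87 reads on days 0 to 7, reaching 15 CPM on day 6 and 20.3 CPM on day 7. Both arms therefore had their highest Tdgf1 value in their last library. The other arms stayed at or near 0, with 3 reads in 8 libraries together in minus_Esrrb, 6 in minus_Glis1 and 3 in minus_Sall4. The highest single values in those arms were 1.73, 1.02 and 0.558 CPM.

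Lefty1, a Nodal inhibitor, followed the co-receptor more than the ligand. The JEGS libraries held 3, 14 and 55 reads on days 2, 4 and 6, or 2.32, 7.84 and 34.4 CPM. The minus_Jdp2 libraries held 0, 0, 1, 2, 6, 3, 45 and 22 reads on days 0 to 7, with 14.7 CPM on day 6 and 10.4 CPM on day 7. A few reads were present in most libraries of the other arms, at 0.588 to 3.95 CPM (median 1.21) in minus_Esrrb, 0 to 1.28 CPM (median 0.548) in minus_Glis1 and 0 to 1.06 CPM (median 0.209) in minus_Sall4. Only the last JEGS library and the last 2 minus_Jdp2 libraries exceeded 10 CPM.

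Lefty2, the second inhibitor, had almost no reads outside 2 arms. The JEGS libraries held 3, 13 and 90 reads on days 2, 4 and 6, or 2.32, 7.28 and 56.2 CPM. The minus_Jdp2 libraries held 1, 0, 0, 2, 9, 13, 54 and 21 reads on days 0 to 7, with 17.6 CPM on day 6 and 9.92 CPM on day 7. The minus_Esrrb arm had 14 reads in all, of which 11 (6.2 CPM) were in the day 5 library. The minus_Glis1 arm had 3 reads in all, and the minus_Sall4 arm 1 read, in its day 0 library. Since these are bulk libraries, fewer cells that express a gene and less RNA per cell cannot be told apart, for this and each other result here.

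**Figure D1:**
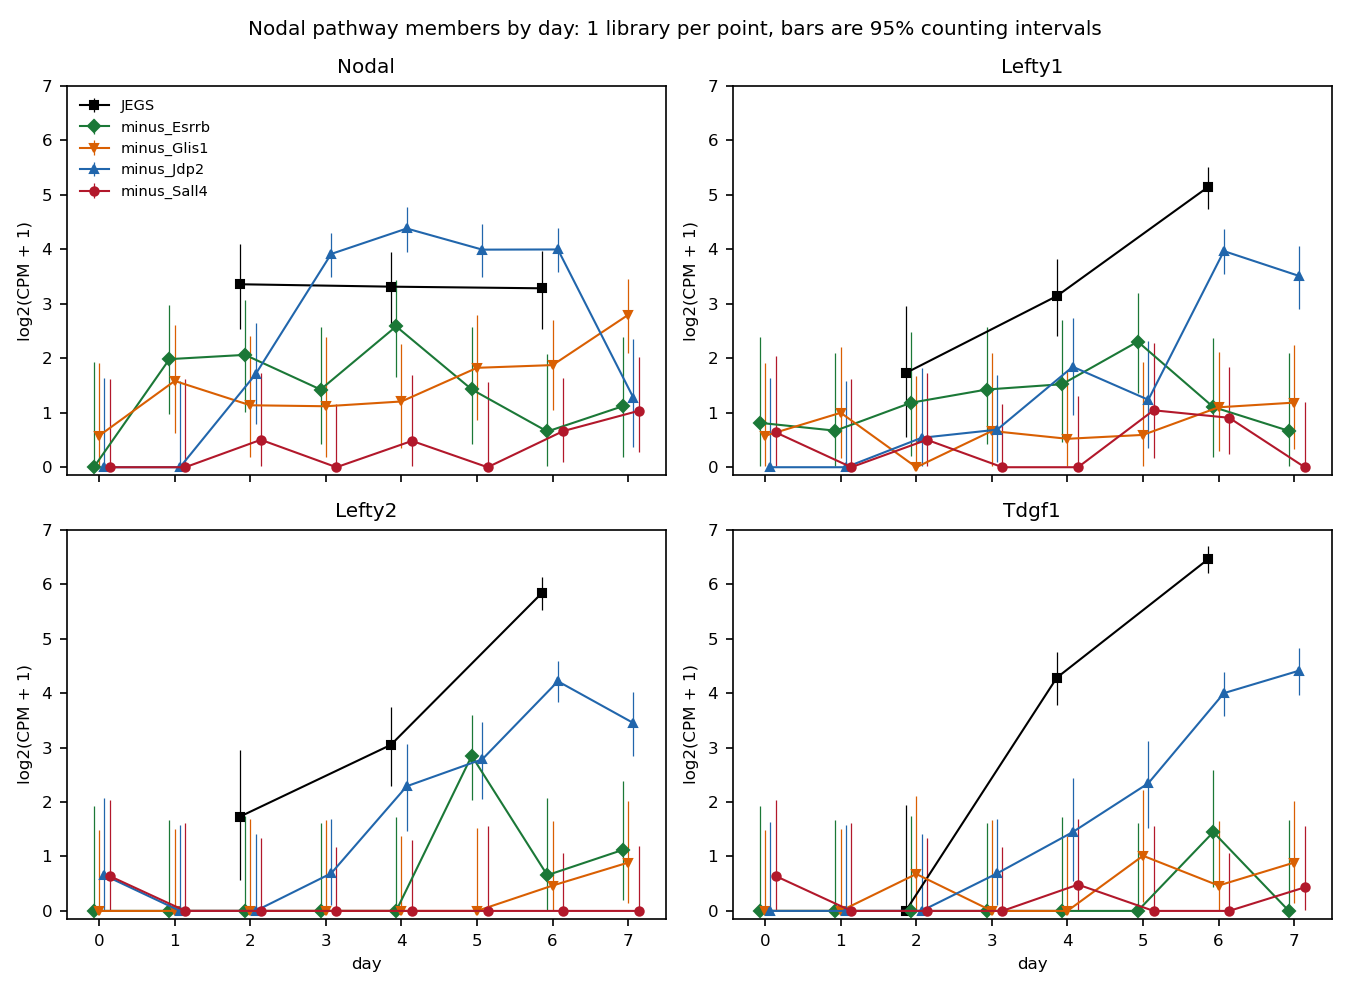
Level of Nodal, Lefty1, Lefty2 and Tdgf1 in each of the 35 libraries, as log2(CPM + 1) against day, with 1 point per library, 1 colour per arm and bars for the 95% counting interval. Nodal was at 8.75 to 9.27 CPM in JEGS, with wide counting intervals, and formed a plateau on days 3 to 6 in minus_Jdp2. The other 3 genes climbed to day 6 in JEGS and to day 6 or 7 in minus_Jdp2.

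On days 2, 4 and 6, the days on which all 5 arms were sampled, the median Nodal level was highest in minus_Jdp2 (15 CPM), followed by JEGS (8.96), minus_Esrrb (3.18), minus_Glis1 (1.31) and minus_Sall4 (0.418). Neighbours in that order were tested by edgeR, leave-out arms over days 0 to 7, and of them minus_Glis1 and minus_Sall4 alone differed past the threshold. For Lefty1 the order was JEGS (7.84 CPM), minus_Jdp2 (2.59), minus_Esrrb (1.27), minus_Glis1 (0.436) and minus_Sall4 (0.418), and no pair of neighbours differed past the threshold. For Tdgf1 the order was JEGS (18.5 CPM), minus_Jdp2 (1.73) and minus_Glis1 (0.381), with minus_Esrrb and minus_Sall4 at a median of 0, and minus_Jdp2 differed past the threshold from both JEGS and minus_Glis1. For Lefty2 the median was 7.28 CPM in JEGS and 3.89 CPM in minus_Jdp2, which did not differ past the threshold, and 0 in the other arms, each of which differed from minus_Jdp2 past it.

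The JEGS arm, which had all 4 factors, was compared with each arm that lacked 1 of them over days 2, 4 and 6, in 1 edgeR fit of 15 libraries. All 4 members passed the filter on low counts in this fit, Lefty2 and Tdgf1 through JEGS and minus_Jdp2 libraries for the most part, so a count of members past the threshold is a description and not evidence by itself. A gene passed when its Benjamini-Hochberg adjusted p over all 16603 genes tested was under 0.05. Against minus_Sall4 all 4 members were higher in JEGS, where 23.8% of all genes tested passed, 11.9% as higher and 11.9% as lower. Nodal was higher by 4.16 ± 0.82 on the log2 scale (SE, adjusted p = 0.0018) and Lefty1 by 4.82 ± 0.84 (adjusted p = 8e-04). Nodal had 42 reads in JEGS and 4 in minus_Sall4, a ratio of 18.7 (95% counting interval 6.78 to 71.7). Lefty1 had 72 and 4, a ratio of 32 (12 to 121). Lefty2 had 106 reads in the 3 JEGS libraries and 0 in the 3 minus_Sall4 libraries (adjusted p = 4.6e-05). With a floor of 3 reads over the minus_Sall4 libraries the ratio was 62.8, and its 95% counting interval with 0 reads began at 50.2. Tdgf1 had 172 reads in JEGS and 1 in minus_Sall4, a ratio of 306 (95% counting interval 54.2 to 12200, adjusted p = 1.1e-04), with both arms at 0 on day 2. These 4 calls held whichever 1 of the 15 libraries was left out. The fitted log2 value for Tdgf1 moved to 4.98 without the minus_Sall4 day 6 library, against 7.71 with it.

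Against minus_Glis1, all 4 members were again higher in JEGS, where 19.9% of genes passed and 9.86% as higher. Lefty1 was higher by 4.52 ± 0.84 on the log2 scale (adjusted p = 0.0014), on 72 reads in JEGS and 4 in minus_Glis1 (ratio 25.3, counting interval 9.47 to 95.4). Lefty2 had 106 reads in JEGS and 1 in minus_Glis1, a ratio of 149 (counting interval 26.2 to 5940, adjusted p = 1.1e-04), and Tdgf1 had 172 and 2, a ratio of 121 (33 to 1010, adjusted p = 2.6e-04). The Tdgf1 call was lost with limma (adjusted p = 0.061). Nodal was higher by 2.36 ± 0.71 (adjusted p = 0.027) on each of 3 days, and that call was lost without the JEGS day 2 or 6 library or the minus_Glis1 day 2 or 4 library (adjusted p 0.059 to 0.15). It was also lost with all 35 libraries in one fit (1.65, adjusted p = 0.14) and with limma (adjusted p = 0.051).

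Against minus_Esrrb, 3 members passed as higher, where 6.63% of genes passed and 4.04% as higher. Lefty2 had 106 reads in JEGS and 1 in minus_Esrrb, a ratio of 111 (counting interval 19.5 to 4430, adjusted p = 6.4e-04), and Tdgf1 had 172 and 3, a ratio of 60.1 (20.2 to 294, adjusted p = 0.0015). DESeq2 lost the Tdgf1 call (adjusted p = 0.056), and limma lost both (0.051 for Lefty2 and 0.12 for Tdgf1). Lefty1 was higher by 2.91 ± 0.79 on the log2 scale (adjusted p = 0.036). The call for Lefty1 was lost without any 1 of 8 libraries, namely the 3 JEGS libraries, minus_Esrrb days 4 and 6, minus_Jdp2 days 4 and 6, and minus_Glis1 day 4. Without the minus_Esrrb day 6 library its value was 1.58 (adjusted p = 0.32). It was also lost with DESeq2, limma, no day term and all 35 libraries in one fit (adjusted p 0.051 to 0.099). Nodal did not pass, at 1.67 ± 0.69 (adjusted p = 0.19), although it was higher in JEGS on each of 3 days.

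Against minus_Jdp2, the arm closest to JEGS, Tdgf1 alone of the 4 members passed, where 2.82% of genes passed and 0.819% as higher. Tdgf1 was higher in JEGS by 2.73 ± 0.66 on the log2 scale (adjusted p = 0.034), with more reads on days 4 and 6 and none in either arm on day 2. That call was lost without the JEGS day 4 or 6 library or the minus_Jdp2 day 2, 4 or 6 library (adjusted p 0.079 to 0.47), and with DESeq2 (adjusted p = 0.51), limma (0.53), no day term (0.33) and all 35 libraries in one fit (0.054). Nodal differed by -0.28 ± 0.60, Lefty1 by 1.41 ± 0.61 and Lefty2 by 1.61 ± 0.52 (adjusted p 0.9, 0.29 and 0.14), and both Lefty genes were higher in JEGS on each of 3 days. Between the 2 libraries of day 6 alone, which compares those libraries and not the arms, the level in JEGS over that in minus_Jdp2 was 0.584 for Nodal (95% counting interval 0.296 to 1.08), 2.34 for Lefty1 (1.55 to 3.56), 3.2 for Lefty2 (2.26 to 4.57) and 5.8 for Tdgf1 (4.13 to 8.28).

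The 4 leave-out arms were compared in pairs over days 0 to 7, in 1 fit of 32 libraries and 18135 genes. Nodal, Lefty2 and Tdgf1 were higher in minus_Jdp2 than in each of the other leave-out arms, and Lefty1 was higher in it than in minus_Sall4 and minus_Glis1. All 4 members again passed the filter, Lefty2 and Tdgf1 mostly through minus_Jdp2 libraries. In minus_Jdp2 against minus_Sall4 all 4 members were higher, where 35.2% of genes passed, 18.2% as higher and 17% as lower. Nodal was higher by 4.31 ± 0.74 on the log2 scale (adjusted p = 4.5e-05), with more reads on 6 of 8 days and none in either arm on the other two. Lefty1 was higher by 2.87 ± 0.79 (adjusted p = 0.0051, 0.055 without the minus_Jdp2 day 6 library and 0.074 with limma). Lefty2 had 100 reads in minus_Jdp2 and 1 in minus_Sall4, a ratio of 104 (counting interval 18.3 to 4160, adjusted p = 1.4e-04), and Tdgf1 had 104 and 3, a ratio of 36.2 (12 to 178, adjusted p = 9e-04).

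In minus_Jdp2 against minus_Glis1 the 4 members were also higher, where 35.2% of genes passed and 17.9% as higher. Tdgf1 was higher by 3.21 ± 0.85 on the log2 scale (adjusted p = 0.0041, and 0.065 with DESeq2), and Lefty2 had 100 reads against 3, a ratio of 29.5 (counting interval 9.82 to 146, adjusted p = 3.4e-04). Nodal was higher by 1.68 ± 0.62 (adjusted p = 0.034), on 5 of 8 days. Its call was lost without any 1 of minus_Glis1 days 2 to 6 or minus_Jdp2 days 3 to 6 (adjusted p 0.058 to 0.12), and with DESeq2 and limma (0.055 and 0.11). Lefty1 lay at the threshold, at 1.86 ± 0.74 (adjusted p = 0.049), and was lost without any 1 of 20 of the 32 libraries. DESeq2 (0.075), DESeq2 size factors in edgeR (0.053) and limma (0.19) lost it too. Its value was 1.23 without the minus_Jdp2 day 6 library and 1.20 without the minus_Jdp2 day 7 library (adjusted p 0.25 and 0.26).

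In minus_Esrrb against minus_Jdp2, 3 members were lower in minus_Esrrb, where 22% of genes passed and 13.5% as lower. Tdgf1 had 3 reads in minus_Esrrb and 104 in minus_Jdp2, a ratio of 0.0411 (counting interval 0.00835 to 0.124, adjusted p = 0.0024). Nodal differed by -1.83 ± 0.63 on the log2 scale (adjusted p = 0.035) and Lefty2 by -2.36 ± 0.76 (adjusted p = 0.028). Nodal's call was lost without any 1 of minus_Esrrb days 3 to 7 or minus_Jdp2 days 3 to 6, and Lefty2's without minus_Esrrb day 4, 6 or 7 or minus_Jdp2 day 3, 4 or 6 (adjusted p up to 0.14 for both). DESeq2 also lost both calls (adjusted p 0.067 and 0.17). Limma lost that of Nodal (0.17), and the fit with no day term lost that of Lefty2 (0.085). Without the minus_Esrrb day 5 library the Lefty2 value was -3.83 (adjusted p = 0.0019). Lefty1 did not pass, at -0.66 ± 0.73 (adjusted p = 0.57), and it was higher in minus_Esrrb on 5 of 8 days.

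Among the other three arms the members were low, and the differences were of a few reads. In minus_Esrrb against minus_Sall4, Nodal was higher in minus_Esrrb by 2.48 ± 0.85 on the log2 scale (adjusted p = 0.017), Lefty1 by 2.20 ± 0.84 (adjusted p = 0.032) and Lefty2 by 2.99 ± 1.06 (adjusted p = 0.024), where 47% of genes passed and 22.2% as higher. Lefty1 was higher on 8 of 8 days, with a call that was lost without minus_Esrrb days 2 to 5 or minus_Sall4 days 3, 4, 6 or 7, each left out singly (adjusted p 0.055 to 0.1), and without the day term (0.076). The Nodal call was lost over days 3 to 7 only (2.00, adjusted p = 0.075), and limma lost all 3 calls (0.056 to 0.44). The Lefty2 reads were 14 against 1, and without the minus_Esrrb day 5 library its value was 1.45 (adjusted p = 0.27). Its call was also lost without minus_Sall4 day 5, 6 or 7 (adjusted p 0.069 to 0.086) and with DESeq2 (0.3). In minus_Glis1 against minus_Sall4, Nodal alone passed, where 32.1% of genes did and 16.2% as higher. Its value was 2.63 ± 0.81 (adjusted p = 0.014, 0.066 without the minus_Glis1 day 7 library and 0.13 with limma), and it was higher on 8 of 8 days. In minus_Esrrb against minus_Glis1 no member passed by edgeR, where 43.2% of genes did, and none had an unadjusted p under 0.05 or passed with DESeq2 or limma. The values were -0.15 ± 0.70 for Nodal, 1.20 ± 0.79 for Lefty1, 2.06 ± 1.01 for Lefty2 and -0.72 ± 1.14 for Tdgf1.

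**Figure D2:**
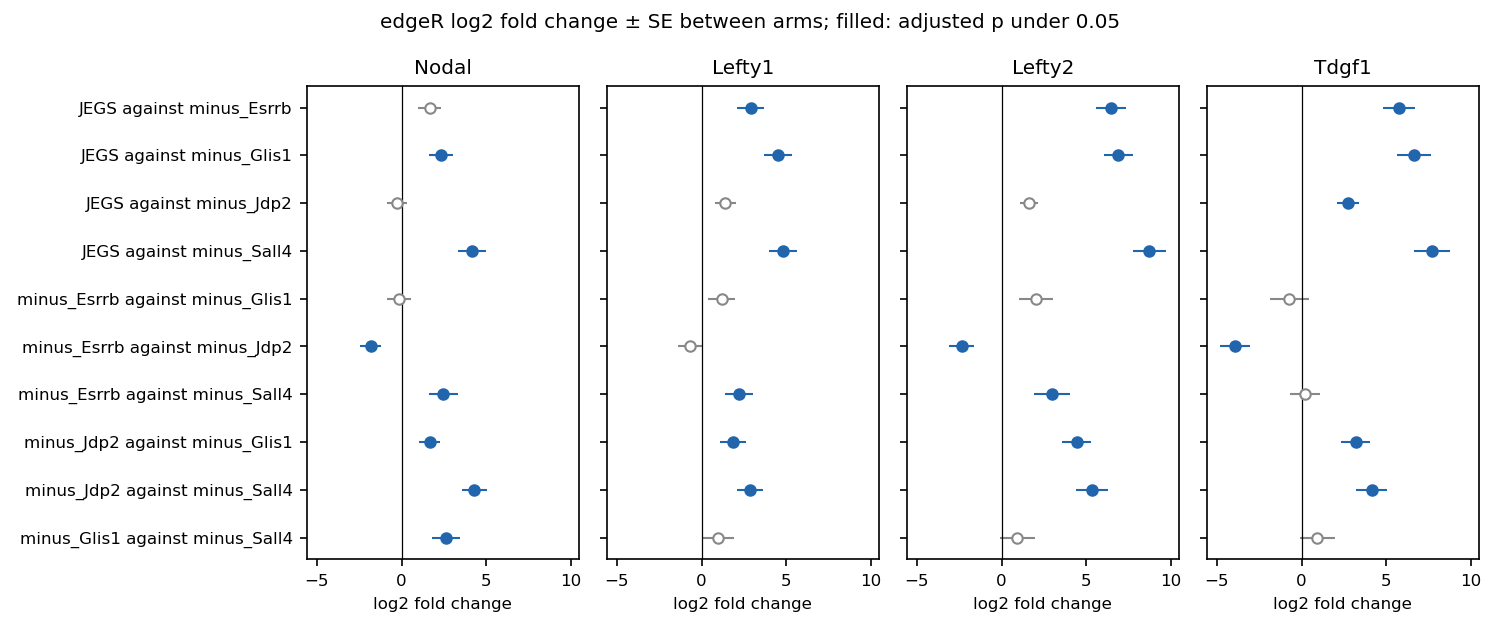
Fitted edgeR log2 fold change ± SE of the 4 members in the 10 comparisons between arms, the arm named first over the arm named second, with filled points at an adjusted p under 0.05. Values fitted against arms with 3 reads or fewer depend on the prior count and are not sizes of change. Lefty2 and Tdgf1 lie farthest to the right in the JEGS comparisons, and Nodal lies at -0.28 in JEGS against minus_Jdp2.

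Change over time was tested as a linear day slope in each leave-out arm, in log2 units per day. In minus_Jdp2 the co-receptor and both inhibitors rose, where 9.68% of genes passed and 5.19% as rising. Tdgf1 rose by 1.38 ± 0.19 per day (adjusted p = 1.7e-05), Lefty1 by 1.10 ± 0.18 (adjusted p = 2.3e-04) and Lefty2 by 1.01 ± 0.22 (adjusted p = 0.0041), and these 3 calls held without any 1 library. Nodal's slope was 0.53 ± 0.23 (adjusted p = 0.15). Without the day 7 library of the arm, which had 3 Nodal reads, it was 0.88 (adjusted p = 0.015), and the full slope also passed with DESeq2 (0.72, adjusted p = 0.0099) and on a log2(day + 1) scale (adjusted p = 0.021). No member passed in minus_Esrrb (19.2% of genes passed), minus_Glis1 (7.87%) or minus_Sall4 (9.3%). In minus_Esrrb the slopes of Lefty2 and Tdgf1 were 0.74 ± 0.30 and 0.71 ± 0.33 (adjusted p 0.092 and 0.16). Without the minus_Esrrb day 7 library these passed at 1.27 and 1.36 (adjusted p 0.037 and 0.018), and Lefty2 also passed without the day 5 library, at 0.89 (adjusted p = 0.042), on 14 and 3 reads in the whole arm. The slopes of the 4 arms differed for Lefty1 (adjusted p = 0.042), where 8.96% of genes passed. That call was lost without any 1 of 15 of the 32 libraries (adjusted p up to 0.15, the highest without minus_Jdp2 day 6), and with no filter, with limma, and without day 0 or day 7 (0.056 to 0.093). For Nodal, Lefty2 and Tdgf1 the difference of slopes did not pass (adjusted p 0.55, 0.19 and 0.097). For Tdgf1 it passed without the minus_Esrrb day 7 library (adjusted p = 0.043) and on log2(day + 1) (0.017), and limma called it for Tdgf1 (2.9e-04) and Lefty2 (0.011).

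Between the last 2 libraries of minus_Jdp2, Nodal moved apart from the other 3 genes. Nodal had 46 reads on day 6 and 3 on day 7, a day 7 level of 0.0946 of that on day 6 (95% counting interval 0.0188 to 0.294). Over the same pair of libraries Tdgf1 was at 1.36 of its day 6 level (0.873 to 2.1), Lefty1 at 0.709 (0.405 to 1.21) and Lefty2 at 0.564 (0.324 to 0.949). These intervals cover counting error only, and with 1 library per day the comparison is of those libraries.

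**Figure D3:**
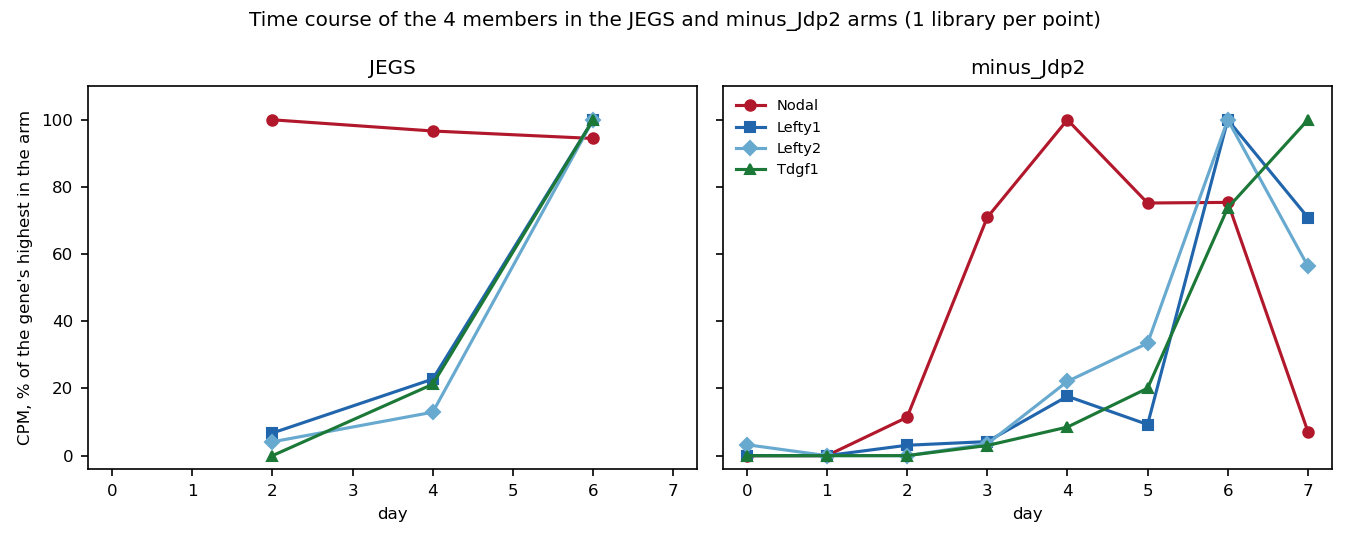
CPM of each member as a percentage of its own highest value in the JEGS arm (left) and the minus_Jdp2 arm (right), against day, 1 library per point. In JEGS, Nodal stays near its highest value on all 3 days while the others climb to day 6, and in minus_Jdp2 Nodal peaks on day 4 while Lefty1 and Lefty2 peak on day 6 and Tdgf1 on day 7.

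Levels of different genes were compared per transcript length, in TPM, the unit that divides reads by the length of the transcript. In JEGS, Nodal was at 6.82, 6.78 and 6.82 TPM on days 2, 4 and 6, and Lefty1 and Lefty2 together were at 3.69, 14.4 and 72.3 TPM. The inhibitors therefore stood at 0.541, 2.13 and 10.6 times the TPM of the ligand. In minus_Jdp2 Nodal was at 0 on days 0 and 1, and the same ratio was 1 on day 2 (5 Nodal reads and 1 Lefty1 read), 0.0943 on day 3, 0.522 on day 4, 0.464 on day 5, 2.66 on day 6 and 19.5 on day 7. The inhibitors were below the ligand on day 2 in JEGS and on days 3 to 5 in minus_Jdp2, and above it on days 4 and 6 in JEGS and on days 6 and 7 in minus_Jdp2. The JEGS day 2 ratio rests on 3 Lefty1, 3 Lefty2 and 12 Nodal reads, and the minus_Jdp2 day 7 ratio on 3 Nodal reads. In minus_Esrrb the ratio was 0.268 to 1.74 on days 1 to 4. It was 12.9, 3.47 and 3.3 on days 5, 6 and 7 of that arm, on 3, 1 and 2 Nodal reads. Tdgf1 was at 15.3 and 82.2 TPM on days 4 and 6 in JEGS, and at 15.2 and 17.6 TPM on days 6 and 7 in minus_Jdp2. The Lefty TPM values also move with how RSEM assigned reads to transcripts of different length: 7 Lefty1 reads in the minus_Esrrb day 5 library were given 12.9 TPM, and 45 reads in the minus_Jdp2 day 6 library 20.1 TPM.

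Across the 35 libraries, on log2(CPM + 1), Lefty1, Lefty2 and Tdgf1 varied together, with Pearson r of 0.9 for Lefty1 and Lefty2, 0.88 for Lefty2 and Tdgf1 and 0.85 for Lefty1 and Tdgf1. Nodal was less alike, with r of 0.58 with Lefty1, 0.6 with Lefty2 and 0.51 with Tdgf1. These are descriptions, since libraries of an arm and neighbouring days share their cells' history and many values are at or near 0. Among 14795 genes with a mean of at least 1 CPM, the 5 most like Lefty1 were Nanog (0.92), Lefty2 (0.9), Dppa4 (0.89), Dppa2 (0.88) and Pou5f1 (0.87). Nanog and Pou5f1 encode core transcription factors of pluripotent cells. Those most like Lefty2 were Lefty1 (0.9), Tdgf1 (0.88), Dppa2 (0.87), Dppa4 (0.85) and L1td1 (0.85). Those most like Tdgf1 were Dppa5a (0.95), Trap1a (0.93), Dppa2 (0.92), Zfp42 (0.92) and Gdf3 (0.9), the last of these a ligand of the same superfamily that also works with Tdgf1. The 5 genes most like Nodal were Btbd17 (0.83), Zbtb34 (0.8), Slc6a14 (0.8), Prkcq (0.79) and Gm48377 (0.78), and no pluripotency marker from the list used here was among them. Of those 5, 4 had their highest value in minus_Jdp2 on day 4 or 5.

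Summed markers of pluripotent cells were highest in late JEGS and minus_Jdp2 libraries, where the Lefty genes and Tdgf1 were also highest. The 6 markers (Pou5f1, Nanog, Sox2, Utf1, Zfp42 and Dppa5a) summed to 154, 276 and 1056 CPM on days 2, 4 and 6 in JEGS, while minus_Jdp2 had sums of 3.45 on day 0 and 267 on day 7. The sum was at most 58.5 CPM in minus_Esrrb, 24.2 in minus_Glis1 and 51.6 in minus_Sall4. Sox2 was also present where members were absent or low. It was at 124 CPM in JEGS on day 2, where Tdgf1 was at 0, at 33.9 CPM in minus_Jdp2 on day 1, where all 4 members were at 0, and at up to 50.5 CPM in minus_Sall4. Utf1 was at 0 in every minus_Sall4 library and Dppa5a in every minus_Glis1 library. In JEGS, 6 of 6 markers passed as higher against minus_Sall4 and against minus_Glis1, where 11.9% and 9.86% of all genes did. Against minus_Esrrb and against minus_Jdp2, 4 of 6 passed as higher, where 4.04% and 0.819% of all genes did. Markers of primitive endoderm (Gata4, Gata6, Sox17, Sox7, Foxa2 and Dab2) summed to 63.3, 82.8 and 101 CPM in JEGS and reached 364 CPM on day 7 in minus_Jdp2. On day 0 their sum was already 94.1 CPM in minus_Esrrb, 186 in minus_Glis1, 121 in minus_Jdp2 and 123 in minus_Sall4. Dab2 alone was at 78.1 to 141 CPM in those day 0 libraries. On day 7 the sum was 106 CPM in minus_Esrrb, 117 in minus_Glis1 and 53.9 in minus_Sall4. Fibroblast markers summed to 2837 to 3131 CPM in JEGS and to 14128 to 28163 CPM on day 0 of the leave-out arms, and on day 7 to 6763 CPM in minus_Jdp2, 5929 in minus_Sall4, 2955 in minus_Esrrb and 2935 in minus_Glis1. The part of these cell markers in the values of the 4 members was not tested.

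The rest of the pathway was described from lists of ligands, receptors, antagonists, processing enzymes, SMAD proteins and targets. Medians of these genes are over days 2, 4 and 6 in JEGS and over days 0 to 7 in the leave-out arms. They thus cover unlike days, while log2 values of JEGS against an arm cover days 2, 4 and 6. Of 10 other ligands, Gdf3 stood with Tdgf1. It was at 0, 11.2 and 26.3 CPM on days 2, 4 and 6 in JEGS, reached 4.25 CPM on day 7 in minus_Jdp2, and stayed at or below 0.63 CPM in every library of the other arms. The activin gene Inhba, whose product signals through the same receptors as Nodal, had a median of 16.2 CPM in JEGS, 3.13 in minus_Esrrb, 14.9 in minus_Glis1, 18.5 in minus_Jdp2 and 54.7 in minus_Sall4. It was highest on day 0 in each of the 4 leave-out arms and fell with day in all of them, by 0.95 ± 0.18 log2 units per day in minus_Esrrb (adjusted p = 4e-04) and by 0.47 ± 0.10 in minus_Sall4 (adjusted p = 0.0033). Tgfb3, which signals through TGF-beta receptors, was lower in JEGS than in minus_Sall4, at a log2 value of -2.61 ± 0.26 (adjusted p = 1.1e-05). Of 8 ligands tested, 1 passed as higher and 3 as lower in JEGS against minus_Sall4 (median log2 value -0.73, against -0.01 over all genes), where 11.9% and 11.9% of all genes did. In minus_Jdp2 against minus_Sall4, 3 of 7 tested passed, all as lower (median -0.14, against 0.01), where 17% of all genes passed as lower and 18.2% as higher.

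Cfc1, the second EGF-CFC co-receptor, had a pattern unlike that of Tdgf1. It was at 0 to 0.62 CPM in JEGS and at a median of 14.9 CPM in minus_Esrrb (highest 18 CPM, on day 3), against at most 2.36 CPM in minus_Jdp2, 0.43 in minus_Glis1 and 0.34 in minus_Sall4. JEGS against minus_Esrrb gave a fitted log2 value of -5.92 ± 0.97 (adjusted p = 0.0036), and minus_Esrrb against minus_Jdp2 gave 4.00 ± 0.48 (adjusted p = 9.9e-07). Thus the arm with the most Cfc1 had 3 Tdgf1 reads, and JEGS had the most Tdgf1. Acvr2b, a type II activin receptor, was at a median of 14.6 CPM in JEGS and 0.91 CPM in minus_Glis1 over its 8 days. The log2 difference over days 2, 4 and 6 was 2.77 ± 0.59 (adjusted p = 0.0034). It was also higher in minus_Jdp2 than in minus_Glis1, by 2.68 ± 0.41 (adjusted p = 7.2e-06). The type I receptor Acvr1b was higher by 1.32 ± 0.28 in JEGS than in minus_Sall4 (adjusted p = 0.0028) and by 1.05 ± 0.20 in minus_Jdp2 than in minus_Sall4 (adjusted p = 1.5e-04). Acvr2a was at a median of 16.9 CPM in JEGS and of 11.6 to 20 CPM in the leave-out arms. Of 7 receptors and co-receptors tested, 2 passed as higher and 1 as lower in JEGS against minus_Sall4 (median 0.51), and none in either direction in JEGS against minus_Jdp2 (median 0.20). Of all genes, 11.9% passed as higher and 11.9% as lower in the former comparison, and 2.82% passed in the latter.

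Among 14 antagonists other than the Lefty genes, the largest difference past the threshold was that of Fstl3, which binds activins. It was at a median of 12.5 CPM in JEGS and 310 CPM in minus_Glis1, a log2 difference of -4.14 ± 0.32 (adjusted p = 8.6e-07). Fst, another activin-binding protein, was at a median of 16.8 CPM in JEGS and 50.4 CPM in minus_Sall4, a difference of -1.86 ± 0.51 (adjusted p = 0.014). Cer1, a secreted Nodal antagonist and target, was at 0 in 33 of 35 libraries and reached 2.15 CPM in 1 of them. Dand5, a relative of Cer1, was higher by 1.21 ± 0.30 in minus_Esrrb than in minus_Jdp2 (adjusted p = 0.0036). Of 13 antagonists tested, 3 passed as higher and 2 as lower in JEGS against minus_Sall4 (median 0.01), where 11.9% and 11.9% of all genes did. None passed in JEGS against minus_Jdp2 (median -0.18), where 2.82% of all genes did.

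The proprotein convertases Furin and Pcsk6, which cleave the Nodal precursor, were present in every library. Pcsk6 was higher in minus_Jdp2 than in minus_Sall4 by 1.26 ± 0.27 on the log2 scale (adjusted p = 4.5e-04) and lower in minus_Esrrb than in minus_Jdp2, at -1.39 ± 0.28 (adjusted p = 4.3e-04). Furin was lower in minus_Esrrb than in minus_Jdp2, at -1.01 ± 0.15 (adjusted p = 8.3e-06). Of 4 processing enzymes none passed in JEGS against minus_Esrrb, minus_Jdp2 or minus_Sall4, where 6.63%, 2.82% and 23.8% of all genes did. In JEGS against minus_Glis1 1 passed, Pcsk7, where 19.9% of all genes did.

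Foxh1, the DNA-binding partner of SMAD2 and SMAD3 in Nodal signalling, climbed over the 3 sampled days in JEGS, as the inhibitors did. It was at 0.77, 7.84 and 15.6 CPM on days 2, 4 and 6 in JEGS, higher than in minus_Sall4 by 4.56 ± 0.98 on the log2 scale (adjusted p = 0.0034) and than in minus_Glis1 by 3.35 ± 0.87 (adjusted p = 0.012). In minus_Jdp2 it rose by 0.88 ± 0.22 per day (adjusted p = 0.0083) to a highest value of 9.51 CPM on day 5. Lefty1 and Lefty2 were at 1.36 and 5.89 CPM in that library and were highest in the arm on day 6. Smad2 was at a median of 38.8 CPM in JEGS and of 36.3 to 45.6 CPM in the leave-out arms. Smad3 was lower in JEGS than in minus_Jdp2, at -1.04 ± 0.26 (adjusted p = 0.038), and than in minus_Glis1, at -0.88 ± 0.26 (adjusted p = 0.025).

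Of 11 genes known as targets of Nodal in the embryo, T (brachyury) was at 0, 29.1 and 49.4 CPM on days 2, 4 and 6 in JEGS and at 0 in all 8 minus_Sall4 libraries. It rose in minus_Jdp2 by 1.08 ± 0.20 log2 units per day (adjusted p = 0.0011). It also rose in minus_Glis1, by 1.11 ± 0.22 (adjusted p = 0.002), and in minus_Esrrb, by 0.51 ± 0.16 (adjusted p = 0.026), where Lefty2 and Tdgf1 stayed low. Eomes went another way among the leave-out arms. Its median was 24.3 CPM in minus_Sall4, 10.1 in minus_Jdp2, 9.59 in minus_Glis1 and 2.08 in minus_Esrrb. Each of the other leave-out arms was lower than minus_Sall4 past the threshold (log2 values -3.25 to -0.92, adjusted p 3e-09 to 0.0062). JEGS, at a median of 16.2 CPM, differed past the threshold from minus_Esrrb alone (2.99 ± 0.54, adjusted p = 0.0034). Against minus_Sall4 the JEGS value was -0.41 ± 0.39 (adjusted p = 0.49). Gsc was lower in JEGS than in minus_Sall4 by a log2 value of -2.54 ± 0.66 (adjusted p = 0.011). Foxa2 was higher in JEGS than in minus_Glis1 by 4.21 ± 0.54 (adjusted p = 7.2e-05) and rose in minus_Jdp2 by 0.63 ± 0.15 per day (adjusted p = 0.0066). Otx2 was at 0 to 3.92 CPM in JEGS and at 0 in every minus_Sall4 library (adjusted p = 0.025). Lhx1 was at 0.56 to 3.79 CPM in minus_Esrrb and at 0 in every minus_Jdp2 library (adjusted p = 0.0026). Wnt3 was higher in minus_Esrrb than in minus_Glis1 by 3.20 ± 0.52 (adjusted p = 1.2e-05). Of 10 targets tested, 3 passed as higher and 2 as lower in JEGS against minus_Sall4 (median 1.84, against -0.01 over all genes), where 11.9% and 11.9% of all genes did. None passed in JEGS against minus_Jdp2 (median 1.59, against 0.02), where 2.82% of all genes did. In minus_Jdp2 against minus_Sall4, 2 of 11 passed as higher and 4 as lower (median -0.22, against 0.01), where 18.2% and 17% of all genes did. In minus_Esrrb, 4 of 11 passed as higher and 1 as lower against minus_Jdp2 (median 1.78), where 8.56% and 13.5% of all genes did. Against minus_Sall4, 6 passed as higher and 2 as lower in minus_Esrrb (median 1.51), where 22.2% and 24.8% of all genes did. In minus_Jdp2 against minus_Glis1, 1 passed as higher and 4 as lower (median -1.32), where 35.2% of all genes passed. In minus_Glis1 against minus_Sall4, 4 passed as higher and 3 as lower (median 0.44), where 32.1% of all genes passed. In minus_Esrrb against minus_Glis1, 3 passed as higher and 3 as lower (median 0.67), where 43.2% of all genes passed. Whether these targets follow the level of Nodal was not tested.

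**Figure D4:**
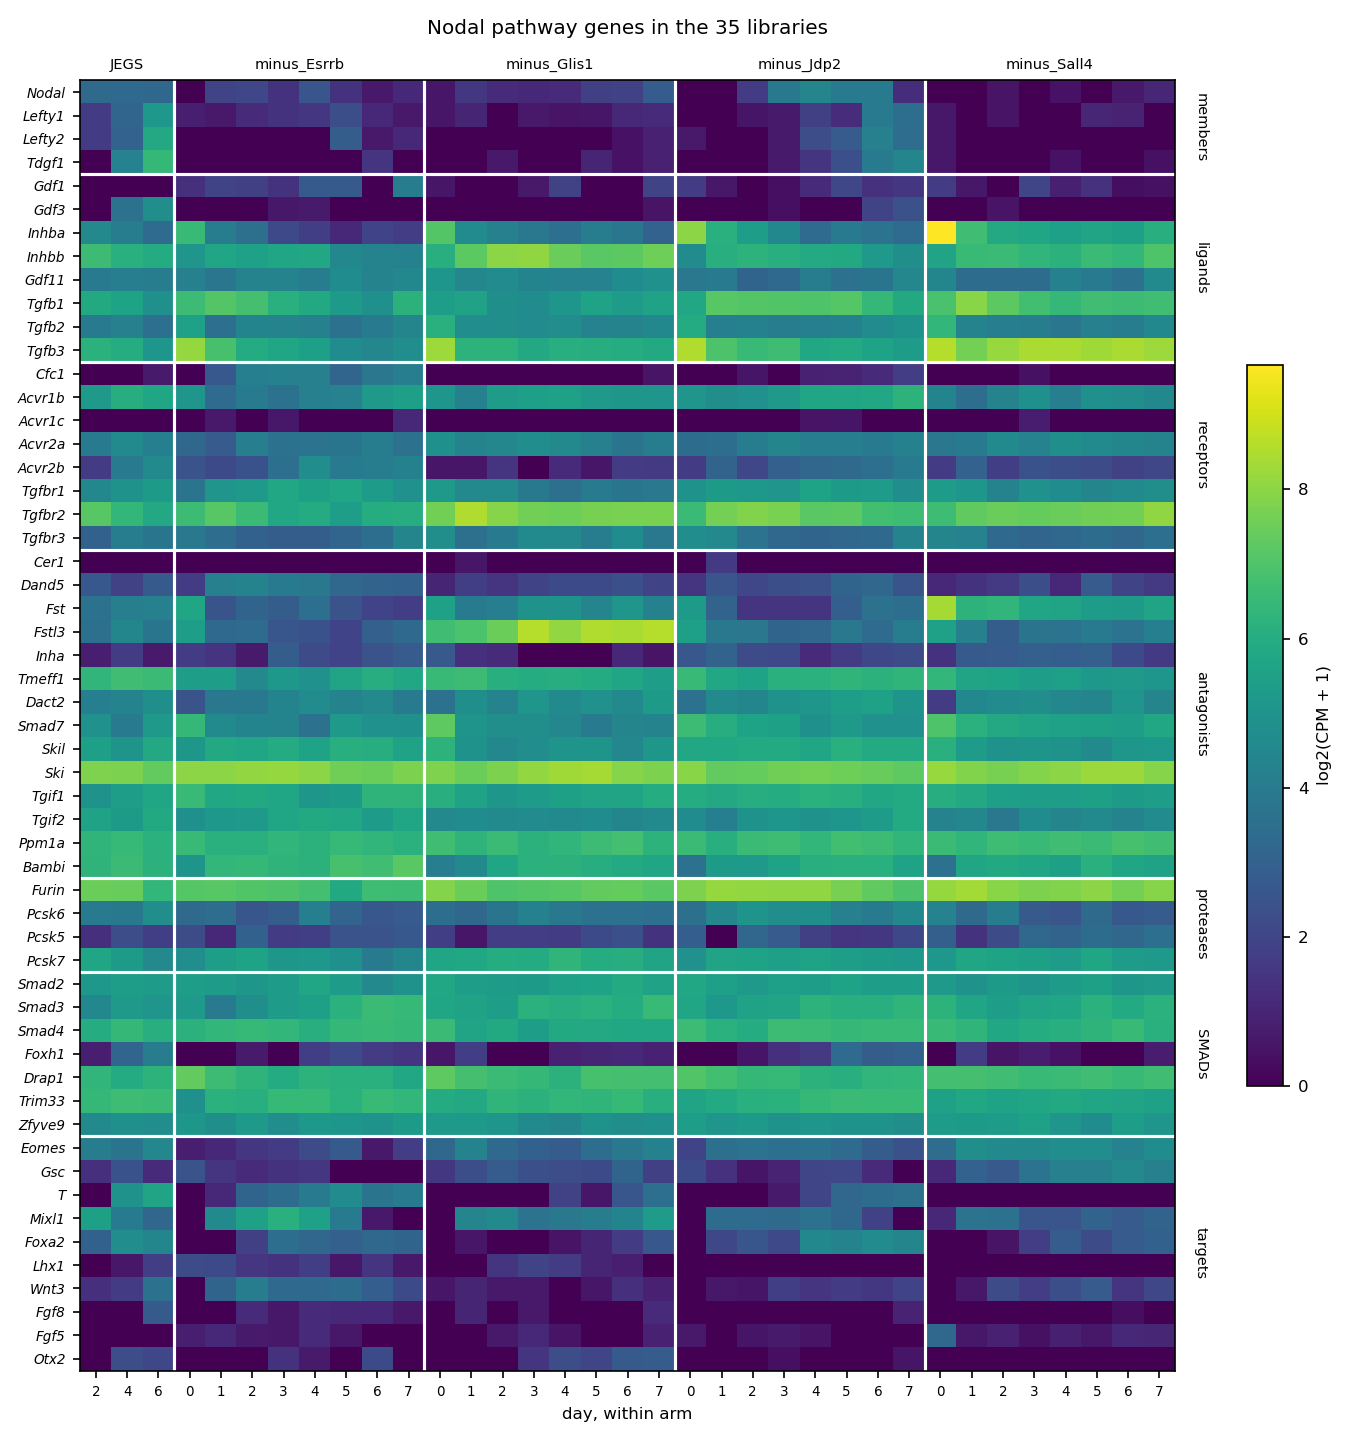
log2(CPM + 1) of the 4 members and 51 other pathway genes that reached 1 CPM in at least 1 library, in rows grouped by role, across the 35 libraries in columns ordered by arm and day. Gdf3 and Foxh1 are bright in late JEGS columns with the members, Cfc1 in minus_Esrrb columns and Fstl3 in minus_Glis1 columns.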

How the data were processed

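RNA of 35 libraries was sequenced. The submitters' processing notes name bcl2fastq, Bowtie2, RSEM and the mm10 build, and give no versions. The authors deposited 1 RSEM table per library with expected counts (estimated read counts, not normalized), TPM and FPKM, per the file headers. The FPKM values the authors deposited were not used in any test. Each table holds 54752 genes, of which 54723 matched a symbol by identifier. Arms and days came from the sample names. Members and gene lists were chosen with earlier results of these data known.

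Expected counts were rounded and analysed in edgeR 4.0.16 (R 4.3.3). Libraries were TMM normalised, genes short of 1 CPM in all but 2 or fewer libraries were dropped, and each contrast was tested by the two-sided quasi-likelihood F test with Benjamini-Hochberg adjustment over all genes tested (threshold 0.05). The 4 leave-out arms were fitted together (32 libraries, day as a factor), JEGS with them on days 2, 4 and 6 (15 libraries), and slopes as a linear term per arm, 15 contrasts in all. CPM are TMM scaled. The SE of a log2 value is its absolute size divided by the square root of the F statistic, so it restates the test. Alternatives were DESeq2 1.42.0 (tests and size factors), limma 3.58.1 on log2(TPM + 1), no filter, no day term, all 35 libraries in 1 fit, a log2(day + 1) scale, days left out, and each library left out in turn. Depth was 1266379 to 3608456 reads per library. Tested on simulated counts, the fit recovered 76 of 100 genes changed by 2 log2 units in minus_Jdp2 against minus_Sall4 and 63 of 100 in JEGS against minus_Jdp2. At 1 log2 unit it recovered 41 and 9 of 100, with 10 and 4 false calls in the 2 simulations. The changed genes were picked at random, with the same dispersion for every gene and no other change over days. Recovery for genes with as few reads as the members was not tested. Intervals are exact Poisson or binomial at 95%, and like the floor of 3 reads they cover counting error only. Of pathway genes other than the members, up to 3 per list and comparison with the largest difference past the threshold could be named (not every such gene is), with Acvr1b, Acvr2a, Acvr2b, Cer1, Gdf3, Foxh1, Smad2, Smad3, Furin and Pcsk6 in any case. A further listed gene is not reported here. Patterns over days beyond these tests, levels of T, Cfc1, Eomes and Inhba in every arm, and the choice of promoters were made after the values were seen.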

Additional observations from a re-analysis of the deposited data

Results flagged for a closer look

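In the 16 sets of 8 daily libraries (4 members in 4 leave-out arms), 6 had 1 library far above the rest by Dixon's test. Chance flags about 1 in 20 sets of normally distributed values, and that rate does not hold for sets of few reads, where 1 read among zeros always stands apart. The 8 libraries of a set are of different days. Nodal was at 5.95 CPM in minus_Glis1 on day 7, with 2.67 CPM in the next highest library of that arm. Lefty1 was at 3.95 CPM and Lefty2 at 6.2 CPM in the same library, minus_Esrrb on day 5, with 1.88 and 1.18 CPM in the next highest libraries. The minus_Esrrb day 6 library held the 3 Tdgf1 reads of that arm (1.73 CPM), with 0 in the others. Lefty2 was at 0.85 CPM in minus_Glis1 on day 7 (2 reads) and at 0.56 CPM in minus_Sall4 on day 0 (1 read). The day slope of Lefty1 differed between the 4 leave-out arms (adjusted p = 0.042, edgeR), with a slope of 1.10 log2 units per day in minus_Jdp2, 0.12 in minus_Esrrb, 0.17 in minus_Glis1 and 0.11 in minus_Sall4.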

How the results depend on the processing

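Of 60 results for single members (4 genes in 15 contrasts), 38 kept direction and side of the threshold without any 1 library and 32 under every other alternative. Of 2052 refits, 1888 kept both, 126 lost a call, 13 gained one and 25 changed sign, none of these past the threshold. The cause of each change was not tested, but leaving out a library also leaves fewer samples. No paired analysis was possible because the sample names carry no replicate numbers, except that the comparisons between arms already match libraries by day through the day term. The deposited JEGS tables carry a replicate mark of 2 in their names, and the other arms carry none. Depth limits Lefty2 and Tdgf1 in minus_Esrrb, minus_Glis1 and minus_Sall4, where each had 14 reads or fewer in a whole arm. It also limits Nodal in minus_Sall4 (7 reads) and Lefty1 in minus_Sall4 (7 reads) and minus_Glis1 (12 reads).

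Of 31 member calls, limma lost 15, DESeq2 9, no day term 4, all 35 libraries in one fit 3, and days 3 to 7 only, DESeq2 size factors, no filter, no day 0 and no day 7 lost 1 each. With DESeq2, 1 member passed in minus_Esrrb against minus_Jdp2, 1 in minus_Jdp2 against minus_Glis1, 1 in JEGS against minus_Esrrb and 0 in JEGS against minus_Jdp2. By edgeR, 3995, 6386, 1101 and 468 of all genes passed in these comparisons. For the alternatives, counts of all genes are given only where they moved most, and the number tested differs between settings. Member counts without them are not set against the genes at large. With limma on log2(TPM + 1), 0 members passed in minus_Esrrb against minus_Sall4, 2 in minus_Jdp2 against minus_Glis1, 0 in minus_Glis1 against minus_Sall4, 0 in JEGS against minus_Esrrb (653 of all genes), 2 in JEGS against minus_Glis1, 0 in JEGS against minus_Jdp2 (209 of all genes) and 2 for the difference of the day slopes. The minus_Jdp2 day slope then had 1136 of all genes. Without the filter on low counts, all genes called numbered 1773 in JEGS against minus_Esrrb and 1122 in JEGS against minus_Jdp2, and 0 members had day slopes that differed. In JEGS against minus_Jdp2, 0 members passed without the day term (218 of all genes) and 0 with all 35 libraries in one fit. On log2(day + 1), the day slope of minus_Glis1 had 2643 genes and that of minus_Sall4 3063, and 2 members had day slopes that differed. Without day 0 these were 926, 804 and 0, and 2482 genes had day slopes that differed. Without day 7, added after seeing the data, 1 member passed for the minus_Esrrb day slope, and 1041 genes for that of minus_Jdp2.

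With each library left out in turn, the count of members called was 1 to 3 in minus_Esrrb against minus_Jdp2 and in minus_Esrrb against minus_Sall4, 2 to 4 in minus_Jdp2 against minus_Glis1, 0 to 1 in minus_Glis1 against minus_Sall4, 3 to 4 in minus_Jdp2 against minus_Sall4, 2 to 3 in JEGS against minus_Esrrb, 3 to 4 in JEGS against minus_Glis1, 0 to 1 in JEGS against minus_Jdp2, 0 to 2 for the minus_Esrrb day slope, 3 to 4 for that of minus_Jdp2 and 0 to 1 for the difference of slopes. Over the same fits all genes called numbered 3322 to 4537 in minus_Esrrb against minus_Jdp2 and 7890 to 8732 in minus_Esrrb against minus_Sall4. They numbered 5641 to 6658 in minus_Jdp2 against minus_Glis1, 5065 to 6119 in minus_Glis1 against minus_Sall4 and 5625 to 6698 in minus_Jdp2 against minus_Sall4. For the minus_Esrrb day slope they numbered 2450 to 3690, and for the difference of slopes 1205 to 2358. With all libraries, 18135 genes were tested, or 16603 with JEGS. All genes called in JEGS against minus_Esrrb numbered 470 to 1119 (607 without JEGS day 2, 470 without JEGS day 4, 615 without minus_Esrrb day 4). In JEGS against minus_Glis1 they numbered 1815 to 3786 (1941 without JEGS day 6, 1815 without minus_Glis1 day 4). In JEGS against minus_Jdp2 they numbered 103 to 619 (260, 138 and 241 without JEGS day 2, 4 or 6, 153 and 103 without minus_Jdp2 day 2 or 4). In JEGS against minus_Sall4 they numbered 2160 to 4534 (2160 without JEGS day 6, 2587 and 2349 without minus_Sall4 day 4 or 6). For the day slopes they numbered 402 to 1771 in minus_Glis1 (402 without day 0), 988 to 2061 in minus_Jdp2 (988 without day 7) and 150 to 2061 in minus_Sall4 (150 and 1052 without day 0 or 6).

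Values that changed sign were small or rested on few reads. With limma these were Nodal in minus_Esrrb against minus_Glis1 (0.03), Lefty1 in minus_Esrrb against minus_Jdp2 (0.00), Tdgf1 in minus_Esrrb against minus_Sall4 (-0.07) and the Lefty1 slope in minus_Sall4 (-0.05). The Nodal slope in minus_Esrrb was 0.08 on log2(day + 1) and 0.00 without day 7, and in minus_Sall4 the slopes of Lefty2 and Tdgf1 were 0.00 and 0.33 without day 0. With each library left out in turn, Nodal ranged from -0.49 to 0.36 in minus_Esrrb against minus_Glis1 and from -0.89 to 0.16 in JEGS against minus_Jdp2, and Tdgf1 from -1.67 to 0.86 in minus_Esrrb against minus_Sall4. The slopes of Nodal and Tdgf1 in minus_Esrrb ranged from -0.26 to 0.01 and from -0.00 to 1.36, and those of Lefty1 and Tdgf1 in minus_Sall4 from -0.08 to 0.30 and from -0.32 to 0.33.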
